A study of Mus musculus with 12 samples.

Results

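Complex I, the NADH dehydrogenase of the inner mitochondrial membrane, is assembled from subunits encoded in the nucleus and from a small set encoded by mitochondrial DNA. The transcripts described here are that mitochondrial set, mt-Nd1, mt-Nd2, mt-Nd3, mt-Nd4, mt-Nd4l, mt-Nd5 and mt-Nd6. They were chosen by name, by matching each Ensembl mouse gene ID to its symbol. All 7 were among the 9073 genes of the count table, and all 7 were among the 8312 genes that passed a filter on low counts.

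Sensory axons run far from the cell body, and mitochondria supply much of the ATP they use. The mitochondrial genome is transcribed in its own compartment, and its mRNAs are translated by mitochondrial ribosomes, whose proteins are distinct from those of cytosolic ribosomes. Complex I passes electrons from NADH to ubiquinone in a peripheral arm and pumps protons through a membrane arm. All the mitochondrially encoded subunits lie in the membrane arm. mt-Nd1 sits where the arms meet and helps form the ubiquinone site, mt-Nd2, mt-Nd4 and mt-Nd5 are the antiporter-like subunits, and mt-Nd3, mt-Nd4l and mt-Nd6 are small subunits between them. Along the mitochondrial genome, mt-Nd4l and mt-Nd4 are neighbours that overlap and are carried on 1 mRNA. The gene for mt-Nd6 lies next to that of mt-Nd5 on the opposite strand.

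RNA came from dorsal root ganglion neurons of mice with the genotype RPL22HA+/+;Advillin-Cre+, in which the Cre driver of sensory neurons turns on an epitope-tagged Rpl22, a protein of the large cytosolic ribosomal subunit. The 4 groups, with 3 samples each, were lysate RNA (Input) and RNA pulled down with an antibody to the HA tag (IP), each after AAV-control or AAV-shGpr151, a viral hairpin named for the orphan receptor gene Gpr151. All groups share genotype, virus delivery and, per the series design, culture after a sciatic nerve injury, although the extraction protocol speaks of fresh ganglia. The sample labels of all 4 groups call the neurons adult. The sources used here do not give the exact age or the sex of the mice, or whether the samples of a group came from separate animals.

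The 3 columns of counts in a group differed by no more than the counting of reads would give. Chi-square per degree of freedom lay between 0.980 and 1.05 in the 12 pairs within groups, against 1.802 to 156.4 in the 54 pairs across groups. The columns of a group were therefore added and counted as 1 sample, here called a library, and no comparison has a replicate check. Summed library totals ran from 3285258 counts in IP shGpr151 to 6332991 in Input control. The 95% intervals given throughout take in the error of counting only, as copies made by PCR are not independent molecules. Gpr151 itself had 24 and 13 counts in the Input libraries labelled control and shGpr151 and 314 and 250 in the IP libraries. Over the library totals it was thus lower in Input but not in IP in the library labelled shGpr151. The Input difference rests on few counts and was not tested against counting error. Control and shGpr151 below therefore mean libraries with those labels. All 16 sensory neuron markers looked for were in the table, and their summed level was 1137 CPM (counts per 1000000 counts of the library) in Input control and 18144 CPM in IP control.

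The complex I transcripts made up a small part of every library, and a far smaller part after the pulldown. Together they held 0.440% of all counts in Input control (27869 counts, Clopper-Pearson interval 0.435 to 0.445%) and 0.406% in Input shGpr151 (24984 counts, 0.401 to 0.411%). In IP they held 0.0679% in control (2883 counts, 0.0655 to 0.0704%) and 0.0818% in shGpr151 (2688 counts, 0.0788 to 0.0850%). In bulk RNA such as this, fewer cells of a type and less RNA per cell cannot be told apart.

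mt-Nd1 (ENSMUSG00000064341), the subunit at the junction of the arms, had 1488, 1430 and 1408 CPM in the columns of Input control and 1622, 1589 and 1565 CPM in Input shGpr151. In IP control it had 188, 237 and 225 CPM, and in IP shGpr151 243, 253 and 216 CPM. Summed over the columns, it had 1442 CPM in Input control and 1592 CPM in Input shGpr151, and 217 and 237 CPM in IP control and shGpr151.

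Among the antiporter-like subunits, mt-Nd2 (ENSMUSG00000064345) had 1299, 1318 and 1348 CPM in Input control and 1093, 1051 and 1104 CPM in Input shGpr151. Its IP levels were 57.2, 67.2 and 55.8 CPM in control and 73.1, 60.2 and 66.7 CPM in shGpr151. The summed levels of mt-Nd2 were 1321 and 1083 CPM in Input control and shGpr151, and 60.1 and 66.7 CPM in IP control and shGpr151.

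mt-Nd4 (ENSMUSG00000064363) had 855, 880 and 875 CPM in Input control and 724, 716 and 753 CPM in Input shGpr151. In IP it had 304, 329 and 325 CPM in control and 377, 464 and 410 CPM in shGpr151. Its summed level was lower in shGpr151 than in control in Input (731 against 870 CPM) and higher in IP (417 against 319 CPM). mt-Nd5 (ENSMUSG00000064367), at the far end of the membrane arm, had summed levels of 177 and 138 CPM in Input control and shGpr151 and of 27.1 and 23.1 CPM in IP control and shGpr151.

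Of the small subunits, mt-Nd6 (ENSMUSG00000064368) had 183, 185 and 187 CPM in Input control and 147, 146 and 151 CPM in Input shGpr151. Its IP columns held 44, 31 and 56 counts in control, or 31.1, 21.9 and 39.6 CPM, and 54, 59 and 50 counts in shGpr151, or 49.3, 53.8 and 45.7 CPM. Like mt-Nd4, mt-Nd6 was lower in shGpr151 in Input and higher in IP. mt-Nd3 (ENSMUSG00000064360) had summed levels of 376 and 341 CPM in Input and 23.8 and 22.5 CPM in IP, control first in each pair.

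mt-Nd4l (ENSMUSG00000065947) was the sparsest, with 185 and 187 counts in Input control and shGpr151. In IP it had 2, 2 and 1 counts in control and 2, 2 and 3 in shGpr151. The table holds no value under 1, so these IP counts are close to the lowest it can show. Transcript lengths of the build used by the authors were not analysed, so levels are compared only between libraries and not from gene to gene.

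**Figure D1:**
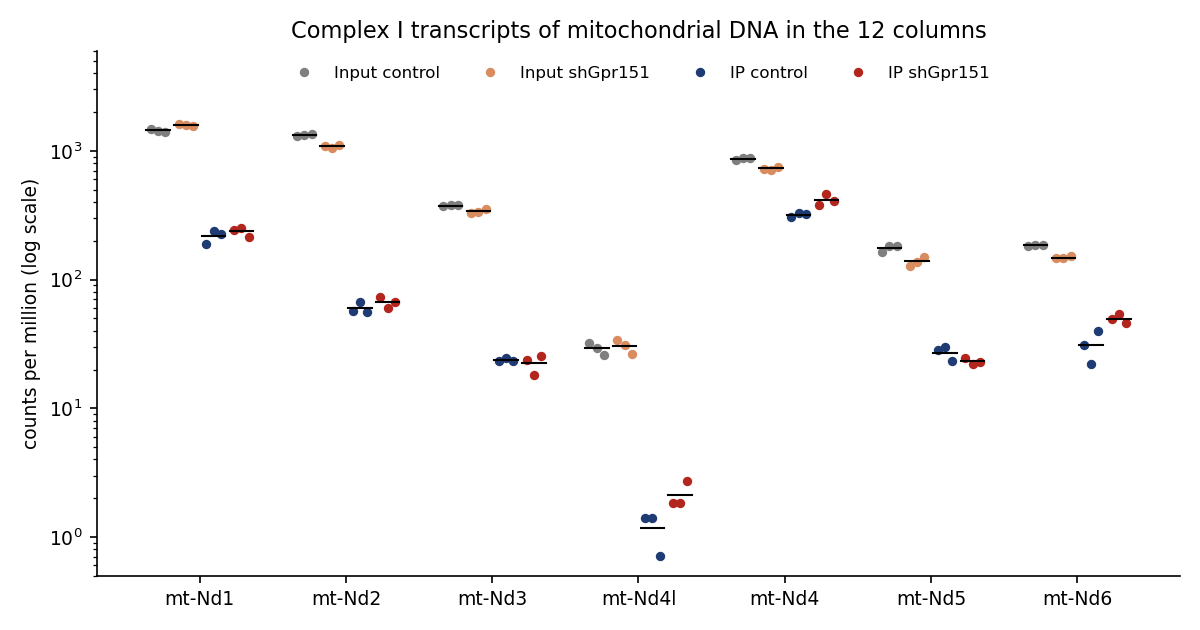
CPM (log axis) of the 7 complex I transcripts of mitochondrial DNA, with a point for each column of counts and a black line at the level of the summed library. Each transcript lies lower in the IP libraries than in Input. In IP the lines of mt-Nd3 and mt-Nd5 lie lower in shGpr151 than in control, and those of the other members lie higher.

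Comparing IP with Input asks which RNA the pulldown of tagged ribosomes retains. Every complex I transcript was lower in IP. Ratios use library sizes from the trimmed mean of M values (TMM), which place the typical gene near 0, and a gene is called where it is past 1.5-fold. In control 7 of 7 members were called lower and 0 higher, where 33.0% of the 8312 tested genes were called lower and 34.8% higher. In shGpr151 the members again gave 7 lower and 0 higher, with 33.7% of all tested genes lower and 36.8% higher. TMM sizes put each ratio 2.17 (control) and 2.19 (shGpr151) lower on the log2 scale than library totals do. On library totals all 7 members remained called lower in both treatments, where 9.91% and 10.3% of tested genes were lower and 82.1% and 80.8% higher. The depletion on totals ran from 2.72-fold (mt-Nd4) to 24.8-fold (mt-Nd4l) in control. In shGpr151 it ran from 1.75-fold (mt-Nd4) to 16.2-fold (mt-Nd2). Among the 1828 genes with 100 or more counts in every library, the shares called lower on TMM sizes were 63.3% and 68.9%, and 4 of the 4 members that qualify (mt-Nd1, mt-Nd2, mt-Nd4 and mt-Nd6) were lower in each.

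The size of the depletion differed from member to member. mt-Nd1 had a log2 ratio of -4.91 (-5.01 to -4.81) in control, which is 30.02-fold lower in IP, and -4.94 (-5.05 to -4.84) in shGpr151. mt-Nd2 was lower still, at -6.63 (-6.82 to -6.45) in control and -6.22 (-6.42 to -6.02) in shGpr151, and only 1.203% and 1.155% of tested genes lay below it. mt-Nd4 was the member least depleted, at -3.62 (-3.71 to -3.53), or 12.3-fold, in control and -3.00 (-3.09 to -2.92), or 8.03-fold, in shGpr151.

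mt-Nd5 had -4.88 (-5.17 to -4.60) in control and -4.78 (-5.13 to -4.44) in shGpr151. Among the small subunits, mt-Nd3 had -6.16 (-6.46 to -5.87) and -6.11 (-6.47 to -5.78), close to mt-Nd2 in both treatments. mt-Nd6 had -4.76 (-5.03 to -4.50) in control and -3.77 (-4.02 to -3.53) in shGpr151, intervals that do not meet. mt-Nd4l had the lowest value in control, -6.81 (-8.45 to -5.56), but on 5 IP counts its interval spans that of mt-Nd2 and mt-Nd3.

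Set against each other, members can be compared without any library size. Of the 21 pairs of members, the IP to Input ratio differed beyond counting error in 16 in control and in 16 in shGpr151. mt-Nd2 was 8.08-fold further depleted than mt-Nd4 in control (log2 difference -3.01, -3.21 to -2.81) and 9.26-fold in shGpr151 (-3.21, -3.42 to -3.00). mt-Nd4 and mt-Nd4l, which share an mRNA, differed by 3.19 (1.90 to 4.47) in control and by 3.03 (1.93 to 4.12) in shGpr151, with mt-Nd4l the lower. The sources used here do not say how reads from this shared mRNA were divided between its overlapping genes. mt-Nd5 and mt-Nd6, neighbours on opposite strands, had a difference of -0.12 (-0.50 to 0.26) in control and of -1.001 (-1.42 to -0.59) in shGpr151. They also do not say whether counting used strand, so reads of these neighbours may not be told apart.

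**Figure D2:**
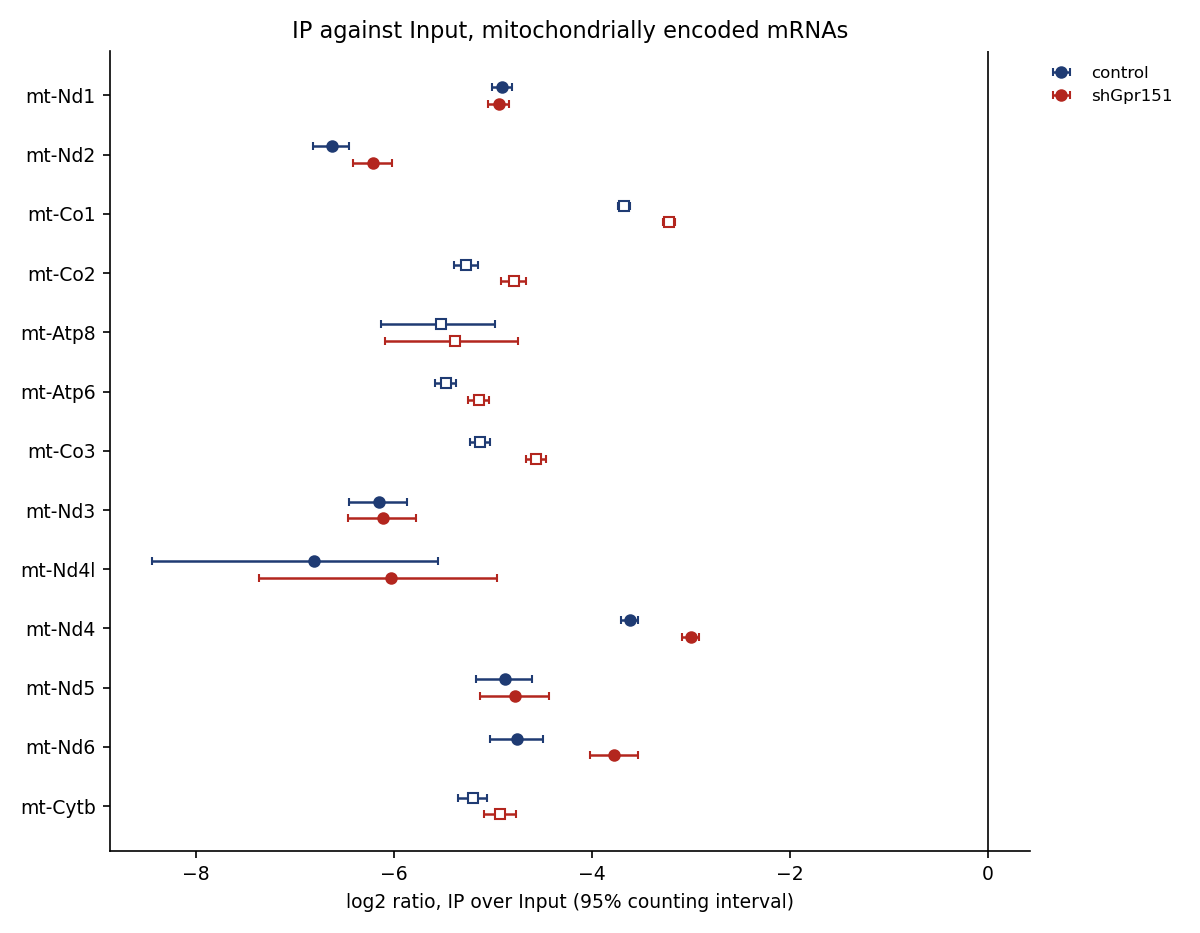
Log2 ratio of IP over Input on TMM library sizes (horizontal axis) for the mitochondrially encoded mRNAs in genome order, with filled circles for complex I members, open squares for the other mRNAs, and bars for 95% counting intervals. Values run from -6.81 for mt-Nd4l in control to -3.00 for mt-Nd4 in shGpr151, and mt-Co1 (-3.68 in control) is the other transcript near mt-Nd4.

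The remaining mRNAs of the mitochondrial genome, for subunits of complexes III, IV and V, were also called lower, over a narrower range. The 6 of them had IP to Input log2 ratios from -5.53 to -3.68 in control, with a median of -5.24, against -6.81 to -3.62 and a median of -4.91 for the 7 members. mt-Nd2, mt-Nd3 and mt-Nd4l had lower values than all of these 6 in both treatments. Added up, the members were slightly further depleted than these 6, by 0.18 on the log2 scale in control (-0.18, -0.24 to -0.11) and by 0.25 in shGpr151 (-0.25, -0.32 to -0.18). The medians of nuclear genes of the same complex were nearer to 0. The 29 tested accessory subunits had a median of -2.40 in control, with 26 called lower and 1 higher. The most depleted of them, Ndufa3, reached the level of mt-Nd4, with -3.58 (-3.63 to -3.53) in control, and lay below mt-Nd4 in shGpr151, with -3.55 (-3.61 to -3.49). The 7 nuclear core subunits, which carry the redox centres, had a median of -0.41, with 3 called lower and 1 higher. On TMM sizes 33.0% of all tested genes were called lower in control and 34.8% higher. On library totals 82.1% of all tested genes were called higher in control and 9.91% lower. Of the accessory subunits 5 were then called higher and 4 lower, and of the core subunits 6 higher and 0 lower. All mitochondrial mRNAs stayed lower.

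Since the library size cancels within the mitochondrial mRNAs, their make-up was compared as shares of the 13 mRNAs. Complex I transcripts held 37.1% of mitochondrial mRNA counts in Input control (36.8 to 37.4%), 38.8% in Input shGpr151 (38.4 to 39.2%), 34.3% in IP control (33.3 to 35.3%) and 34.8% in IP shGpr151 (33.7 to 35.9%). The total thus moved little, while the parts moved more. mt-Nd4 held 7.33% in Input control but 16.1% in IP control, and 6.98% and 17.7% in the shGpr151 libraries. mt-Nd2 went the other way, with 11.1% in Input control and 3.03% in IP control, and 10.3% and 2.84% in shGpr151. mt-Nd3 held 3.17% in Input control and 1.202% in IP control. mt-Nd1 held 12.2% in Input control, 15.2% in Input shGpr151, 10.9% in IP control and 10.1% in IP shGpr151.

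**Figure D3:**
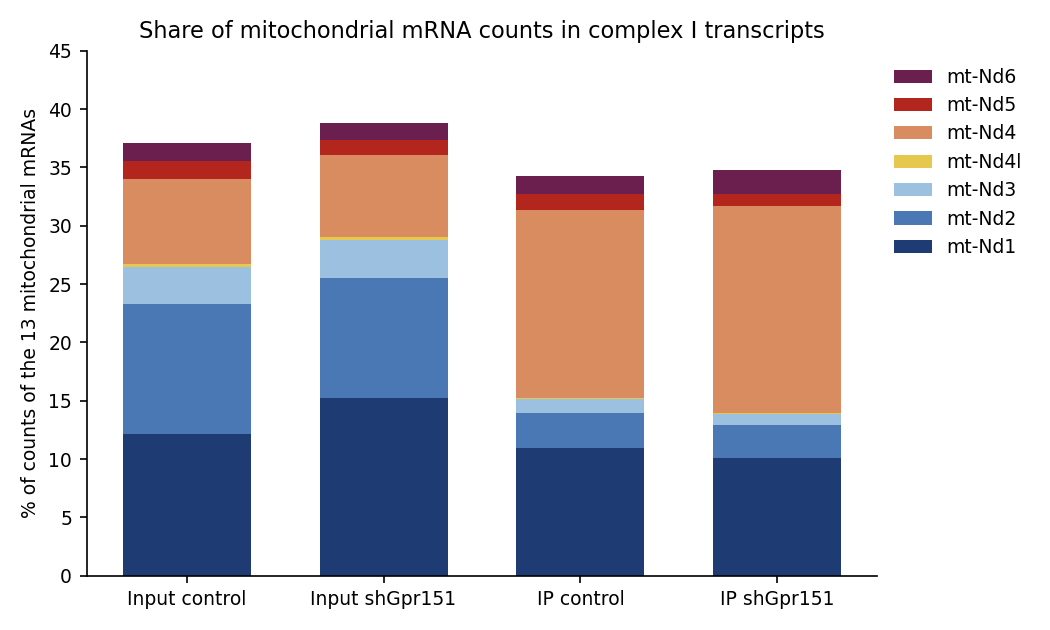
Share of the counts of the 13 mitochondrially encoded mRNAs held by each complex I transcript (stacked, in percent, from 0) in the 4 libraries. The stacks reach 34.3 to 38.8%, and the mt-Nd4 part grows from 7.33% in Input control to 16.1% in IP control while the mt-Nd2 part shrinks from 11.1% to 3.03%.

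Between the IP libraries the question is which RNAs recovered by the pulldown differ between the library labelled shGpr151 and the control. The tag is on a protein of cytosolic ribosomes, and whether the complex I transcripts in IP were bound to tagged ribosomes was not tested. The complex I members as a sum were 0.23 (0.15 to 0.30) higher in IP shGpr151 on the log2 scale. That sum leans on mt-Nd4, which held 47.0% of the members' counts in IP control and 51.0% in IP shGpr151. mt-Nd6 and mt-Nd4 were the members whose intervals lay above 0. By the 1.5-fold rule 2 of 7 members were called higher, mt-Nd6 and mt-Nd4l, and 0 lower, where 3.54% of tested genes were called higher and 2.35% lower. mt-Nd6 had a log2 ratio of 0.64 (0.30 to 0.99), or 1.56-fold, on 131 and 163 summed counts. Without the second column of IP control it was 0.45, or 1.36-fold, and without the second column of IP shGpr151 1.495-fold, so either omission ends the call. mt-Nd4l had 0.81 (-1.06 to 2.81) on 5 and 7 counts, so at this depth a difference in either direction was not detectable, and without the third column of IP control it was 1.46-fold. Among the 1828 genes with 100 or more counts in every library only 8, or 0.438%, were called higher in IP shGpr151, and mt-Nd6 was 1 of them.

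mt-Nd4, below the 1.5-fold rule, had 0.34 (0.23 to 0.45), a 1.27-fold higher level on 1356 and 1370 counts, and 87.4% of tested genes had a lower ratio. The intervals of the other members held 0. mt-Nd1 had 0.09 (-0.05 to 0.23), mt-Nd2 0.11 (-0.16 to 0.37), mt-Nd3 -0.12 (-0.57 to 0.33) and mt-Nd5 -0.27 (-0.71 to 0.16). mt-Nd5 and mt-Nd6 therefore had opposite signs, with a difference of -0.91 (-1.45 to -0.38). Of the counts of these neighbours, mt-Nd5 held 46.7% in IP control (40.4 to 53.2%) and 31.8% in IP shGpr151 (25.9 to 38.1%), against 48.9% and 48.3% in the Input libraries.

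The members as a sum did not differ beyond counting error from the other 6 mitochondrial mRNAs in this comparison (0.03, -0.06 to 0.13). Those 6 had a median of 0.17 and a range of -0.09 to 0.27, and the 7 members a median of 0.11, where the median of all tested genes was 0.0034. Nuclear complex I genes had medians below 0 in the same comparison, -0.10 for the 7 core subunits and -0.15 for the 29 accessory subunits, of which 26 lay below 0, and 0 of either list were called. Ndufs7, a core subunit, had -0.25 (-0.36 to -0.14) and Ndufa2, an accessory subunit, -0.19 (-0.26 to -0.11).

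Markers of other cells were measured beside this. The summed level of the 8 fibroblast markers in the table, of 11 looked for, was 1130 CPM in IP control (columns 1118 to 1145) and 1384 CPM in IP shGpr151 (1376 to 1399). The 11 satellite glia markers, all in the table, had 3090 and 3130 CPM, 7 of 9 Schwann cell markers 592 and 624 CPM, 12 of 13 macrophage markers 561 and 595 CPM, and 7 of 10 endothelial and mural markers 326 and 307 CPM. The 16 sensory neuron markers had 18144 and 17617 CPM, although 9 of the 16 had ratios above 0 (median 0.06). Col1a1, a fibroblast collagen, had 574 and 648 counts. The part of other cells in the IP values of the complex I transcripts was not tested.

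The same comparison in the lysate is that of the Input library labelled shGpr151 with its control. Here most complex I transcripts were slightly lower in shGpr151, and mt-Nd1 was slightly higher. By the 1.5-fold rule 0 of 7 members were called in either direction, where 9.29% of tested genes were called higher and 13.5% lower. The largest differences were those of mt-Nd5, -0.38 (-0.51 to -0.25), and mt-Nd6, -0.34 (-0.47 to -0.21). mt-Nd2 had -0.31 (-0.36 to -0.26), mt-Nd4 -0.27 (-0.33 to -0.21) and mt-Nd3 -0.16 (-0.25 to -0.08). mt-Nd4l had 0.04 (-0.26 to 0.34).

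mt-Nd1 had 0.12 (0.08 to 0.16), with 9134 counts in control and 9788 in shGpr151, and all other mitochondrial mRNAs except mt-Nd4l lay below 0. Against its neighbour in the genome order, mt-Nd2, it differed by 0.43 (0.37 to 0.49), or 1.35-fold, and against mt-Nd5 by 0.50 (0.36 to 0.63), or 1.41-fold. Of the 21 pairs of members, 13 differed beyond counting error in Input and 7 in IP. The ratio of the members' sum, -0.14 (-0.16 to -0.11), was higher than that of the other 6 mRNAs, -0.24 (-0.26 to -0.22), by 0.10 (0.07 to 0.13). That sum leans on mt-Nd1, which held 32.8% of the members' counts in Input control and 39.2% in Input shGpr151. By medians the order was the reverse, with -0.27 for the 7 members and -0.25 for the other 6.

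Nuclear genes of complex I went both ways in Input. The 7 core subunits had a median of 0.34, 5 of them above 0, with Ndufs8 at 0.48 (0.38 to 0.59) and Ndufv2 at 0.45 (0.32 to 0.58), and 0 were called. The 29 accessory subunits had a median of -0.04, with 14 above 0, 15 below and 0 called. Their 3 most abundant genes were lower in shGpr151, as most complex I members were. Ndufa3 had -0.20 (-0.23 to -0.16), Ndufa5 -0.13 (-0.17 to -0.08) and Ndufa2 -0.11 (-0.15 to -0.08). The 12 tested assembly factors had a median of 0.17, with 2 called higher beside the 9.29% of all tested genes. These were Acad9, on 6 and 9 counts with an interval that held 0, and Ecsit, on 8 and 20 counts, whereas the most abundant factor, Ndufaf8, had 0.02 (-0.14 to 0.18). In the IP comparison 0 of the 12 were called, with a median of -0.11. Markers of several other cells were also lower in Input shGpr151 than in control. Fibroblast markers had 563 and 494 CPM in Input control and shGpr151, with 8 of 8 log2 ratios below 0 and a median of -0.20. Satellite glia markers had 949 and 871 CPM, with 8 of 10 tested below 0 and a median of -0.32, and Schwann cell markers 361 and 316 CPM, with 5 of 6 below 0 and a median of -0.25. Macrophage markers had 470 and 498 CPM (median 0.21) and endothelial and mural markers 171 and 228 CPM (median 0.37). The sensory neuron markers summed to 1137 and 1324 CPM, but their most abundant gene, Uchl1, went from 3689 to 4926 counts. Of the 16, 10 lay below 0 (median -0.11), with 2 called lower and 0 higher. Among all tested genes 13.5% were called lower and 9.29% higher. The part of these cell types in the Input values of the complex I transcripts was not tested.

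Factors that transcribe, process or stabilise mitochondrial RNA went both ways. Of 20 tested, 2 were called higher and 0 lower in IP shGpr151, and 4 higher and 3 lower in Input shGpr151, with medians of 0.15 and 0.02. The shares over all tested genes were 3.54% and 2.35% in IP and 9.29% and 13.5% in Input. The 2 IP calls, Tfb2m (28 and 37 counts) and Mtpap (31 and 38 counts), had intervals that held 0. Slirp, which with Lrpprc protects mitochondrial mRNAs, had -0.17 (-0.27 to -0.07) in IP and -0.17 (-0.22 to -0.11) in Input. Ssbp1, the mitochondrial single-stranded DNA-binding protein, was called higher in Input, at 1.00 (0.87 to 1.13) on 755 and 1490 counts, and had -0.24 (-0.46 to -0.03) in IP. Polg2, the accessory subunit of the mitochondrial DNA polymerase, had -0.44 (-0.49 to -0.40) in Input. Of 10 tested mitochondrial translation factors, 1 was called higher in IP and 2 higher and 1 lower in Input. Tufm, the mitochondrial elongation factor Tu, was 1 of the 2, at 0.82 (0.25 to 1.40) on 42 and 73 counts.

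**Figure D4:**
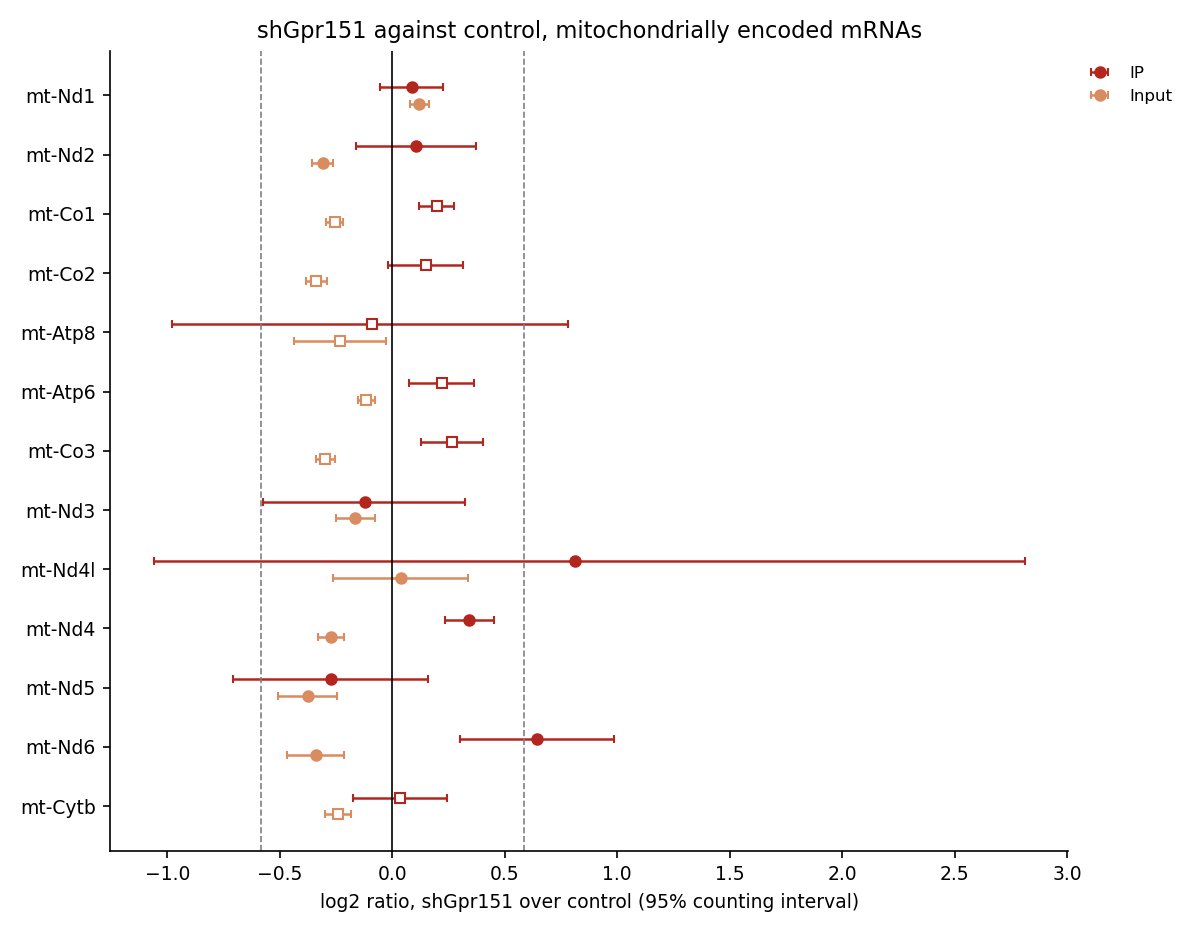
Log2 ratio of shGpr151 over control (horizontal axis) in IP and in Input for the mitochondrially encoded mRNAs in genome order, with filled circles for complex I members, open squares for the other mRNAs, bars for 95% counting intervals and dashed lines at 1.5-fold. In Input all but mt-Nd1 (0.12) and mt-Nd4l (0.04) lie left of 0. In IP mt-Nd4 (0.34), mt-Nd6 (0.64), mt-Co1 (0.20), mt-Co3 (0.27) and mt-Atp6 (0.22) lie to the right with intervals that do not reach 0.

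The difference between the hairpin ratio in IP and that in Input uses all 4 libraries. For the members as a sum it was 0.36 (0.28 to 0.44). By the 1.5-fold rule 3 of 7 members were called higher and 0 lower, where 19.9% of tested genes were called higher and 13.4% lower. mt-Nd6 had 0.98 (0.63 to 1.34) and mt-Nd4 0.61 (0.49 to 0.74), whereas mt-Nd4l had 0.78 (-0.91 to 2.46) on few counts. Without the second column of IP shGpr151 mt-Nd4 was 1.45-fold, and without the first column of IP control 1.494-fold, each under the rule. Without the third column of IP control mt-Nd4l was 1.43-fold, and without the third of IP shGpr151 1.47-fold. mt-Nd2 had 0.42 (0.15 to 0.68), and mt-Nd5, mt-Nd3 and mt-Nd1 had 0.11, 0.04 and -0.03 with intervals that held 0. The other 6 mitochondrial mRNAs had values from 0.14 to 0.57 with a median of 0.39, and the members a median of 0.42.

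The genes whose levels over the 4 libraries were most like the median of the members were sought among the 1828 genes with 100 or more counts in every library. Likeness was the Euclidean distance between log2 levels on TMM sizes over the 4 libraries, each gene centred on its own mean. Of the 20 nearest genes 4 were mitochondrially encoded, among them 1 member, mt-Nd1 (distance 0.23). The 6 nearest nuclear genes were Ash2l, a subunit of histone methyltransferase complexes (distance 0.098), Gon7, a subunit of a tRNA-modifying complex (0.12), Sap18, a histone deacetylase and splicing cofactor (0.12), Decr2, a peroxisomal fatty acid enzyme (0.14), Bcas2, a spliceosome component (0.15), and Zfp60, a zinc finger gene (0.18). Their IP to Input log2 ratios in control ran from -5.27 for Zfp60 to -5.03 for Ash2l. Sap18, the most abundant of them, had 19882 and 16759 counts in Input and 1736 and 1327 in IP. In the IP comparison these 6 lay between -0.08 (Bcas2) and 0.17 (Zfp60), and in Input between -0.24 (Bcas2) and -0.09 (Ash2l). mt-Nd6 (distance 0.97), mt-Nd2 (1.35) and mt-Nd4, the remaining members with 100 or more counts in every library, were farther from the members' median and ranked 110, 169 and 253.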

How the data were processed

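Per the labels' protocols, cDNA was amplified by PCR and barcoded for nanopore sequencing. The submitters' processing notes list GRCm39 and mm39 as builds, and Salmon and minimap2 as tools. Values in the deposited table are raw counts of each gene in 12 columns, matched by name to the 12 samples. The sources used here do not give counting rules, strand use or versions. Symbols matched all but 12 of the 9073 IDs. The annotation table is of another build (GRCm38.p6) and served only for gene order.

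The 3 columns of each group agreed within counting noise and were summed. Each log2 ratio compares such sums, divided by summed TMM sizes (edgeR 4.0.16, R 4.3.3, filterByExpr at 10), with exact conditional binomial intervals (Clopper-Pearson) or, for differences of ratios, Wald intervals (scipy 1.17.1). CPM levels are over the library total. A call is 1.5-fold, and no p-value is given with 1 sample a group. Intervals and edgeR were tested on simulated data.

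The members and lists were chosen with earlier results of these data known. Named genes are all members, Gpr151, the 6 genes nearest in profile (0.5 added to each count, leaving out mitochondrially encoded genes, predicted models, Riken clones and pseudogenes) and some of the 3 most abundant genes of each list. Ndufa3 as the most depleted accessory subunit, mt-Co1, mt-Co3, mt-Atp6, Acad9, Ecsit, Tfb2m and Mtpap were singled out after their values were seen. Alternatives were RLE sizes, library totals, TMM without mitochondrial genes, no filter, folds of 1.2 and 2, only genes with 100 or more counts, each column left out, and edgeR or DESeq2 1.42.0 on the columns. Mitochondrial ribosomal RNAs and protein sequences were not analysed here. Of 5 long noncoding RNAs looked for as nuclear markers 1, Snhg11, was in the table. Figures were drawn with matplotlib 3.10.9.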

Additional observations from a re-analysis of the deposited data

Results flagged for a closer look

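Of the 7 complex I members, mt-Nd4 and mt-Nd6 had hairpin ratios of opposite sign in IP and Input, with both counting intervals away from 0. This was not particular to complex I, as mt-Co1, mt-Co3 and mt-Atp6 showed the same. Their log2 ratios were 0.20, 0.27 and 0.22 in IP and -0.26, -0.30 and -0.11 in Input. Among nuclear genes, fibroblast markers also had medians of opposite sign, 0.23 in IP and -0.20 in Input. Endothelial and mural markers had the reverse, -0.14 and 0.37. The share of all tested genes with opposite signs was not counted. The ratio in IP minus that in Input was 0.61 on the log2 scale for mt-Nd4 and 0.98 for mt-Nd6. With 1 sample a group this difference was not tested between samples.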

How the results depend on the processing

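With 1 library per group, depth limits mt-Nd4l (5 and 7 IP counts) most, and no value speaks to variation between animals. No called member changed sign under any alternative run. Library totals gave -2.70 and -2.31 for the members' summed IP to Input log2 ratio in control and shGpr151, the unfiltered table -4.78 and -4.43, and RLE sizes -4.58 in shGpr151 and -0.11 for the Input hairpin ratio. A fold of 1.2 called 1 member lower in IP and 4 lower in Input, where 13.7% and 33.1% of tested genes were lower. It also called 3 members higher in IP, beside 18.7% of tested genes, and 0 higher in Input. In the difference of the hairpin ratios it called 4 members higher, beside 37.9% of tested genes, and 0 lower. A fold of 2 called 0 members higher in IP and 0 in the difference of the hairpin ratios. With 100 or more counts in every library 1 member was higher in IP shGpr151, and 4 of the 4 left were lower in IP than in Input in either treatment. Treated as replicates, the columns gave 1 member higher and 5 lower in Input in edgeR's quasi-likelihood test (Benjamini-Hochberg adjusted p threshold 0.05), and 4 lower in DESeq2. Over all genes tested, edgeR called 8.34% higher and 8.70% lower in Input, and DESeq2 called 10.6% lower. In both tests, 2 members were again called higher in IP and 3 in the difference of the hairpin ratios. mt-Nd4l was not among them, and mt-Nd4 (IP) and mt-Nd2 (difference) were. The shares of all tested genes called higher were 3.72% in IP and 5.45% in the difference in edgeR, and 4.88% and 6.20% in DESeq2. With the replicate number as a block edgeR also gave 1 and 5, and the block changed no other count of members. Same-numbered columns had correlations of -0.062 to 0.044. As the columns of a group differed by counting noise only, these values cannot show whether the numbers pair the samples. Without mt-Nd6 the members' share of mitochondrial mRNA counts was 36.1% and 37.9% in Input and 33.3% and 33.4% in IP. Leaving out each column gave 1 to 2 members called higher in IP. It gave a summed log2 ratio of 0.18 to 0.26 in IP and of -0.14 to -0.13 in Input.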

Other observations

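Within single libraries, 3 of 28 sets of 3 columns for a member differed by more than the 95% point of the chi-square distribution (5.99 on 2 degrees of freedom). They were mt-Nd4 in IP shGpr151 (9.97), mt-Nd1 in IP control (8.54) and mt-Nd6 in IP control (7.15).

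Polg2 had 10089 and 7315 counts in Input control and shGpr151 but 54 and 49 in IP, a log2 ratio of -9.14 (-9.56 to -8.76) for IP over Input in control. It was the most depleted gene of those listed for expression and upkeep of mitochondrial DNA, and lower than any complex I member. Snhg11, a noncoding RNA, had -5.19 in the same comparison, 0.22 between the IP libraries and -0.22 between the Input libraries. Of 10 tested mitochondrial translation factors, all nuclear genes, 5 were called higher and 1 lower in IP over Input in control, with a median of 0.49, where 34.8% of all tested genes were called higher. In shGpr151 6 lay above 0 and 4 below, with 4 called higher and 1 lower. On library totals 10 of 10 were higher in control, where 82.1% of all tested genes were.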
